A study of Caenorhabditis elegans with 4 samples.

Results

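The LIN-13 peaks in the centre of chromosome IV are the rows of a deposited peak list whose midpoint lay on that chromosome from 3896000 to below 12970000 (WormBase WS180), the stretch taken as its recombination-defined centre. There were 343 such peaks among 5502 in the whole list, which is 6.23% of it (Clopper-Pearson 95% interval 5.61 to 6.91, counting error only). Within the centre, 82 peaks lay between 4.5 and 7.0 Mb, called here the piRNA domain after the smaller of the chromosome's piRNA gene clusters, and 261 lay in the rest of the centre. The build in which the edges of these stretches were first drawn is not given in the sources used here, so the WS180 position of the piRNA genes themselves was not checked.

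The list was made by ChIP-seq, the sequencing of DNA that co-precipitates with a protein, in embryos of Caenorhabditis elegans strain OP51. For it 2 ChIP libraries were set against 2 input libraries of sheared chromatin that was not precipitated. Both kinds came from hermaphrodites with the unc-119 (ed3) III mutation, rescued by unc-119 (+) on the transgene wgIs73, which also carries lin-13::TY1::EGFP::FLAG. The worms were grown at 20 °C and fixed with 2% formaldehyde. Goat polyclonal anti-GFP was used for the ChIP libraries, so the measured protein is the product of a transgene carried in a single bombarded line. The authors combined both replicates in 1 list of regions with a q-value each. The number of reads per library is unknown, and no value below carries an error between replicates. Intervals cover counting error only, and they treat peaks as independent although peaks lie in groups. No p-value was computed, because peaks of 1 list are not replicates.

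The zinc-finger protein LIN-13 belongs to the synMuv B group, named for the extra vulvae of its mutants, and it works with the retinoblastoma homologue LIN-35 and the heterochromatin protein HPL-2 in gene repression. The centres of worm autosomes recombine little and are rich in conserved, broadly expressed genes, while the arms recombine more and carry more repeats. The piRNAs of the worm are short germline RNAs that bind the Argonaute PRG-1 and guide silencing of foreign sequence. Most piRNA genes are transcribed one at a time from small promoters of their own, and nearly all sit on chromosome IV. In the RefSeq gene table (WBcel235), 14714 of 15363 genes annotated as piRNA (95.8%) are assigned to chromosome IV. Peaks were not assigned to genes, because that table belongs to another assembly than the peak list, and no genomic sequence of WS180 was used here.

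LIN-13 peaks were sparser in the centre of chromosome IV than on its arms and on the other chromosomes. The centre held 37.8 peaks per Mb over 9.07 Mb (exact Poisson 95% interval 33.9 to 42.0). The arms of chromosome IV, 464 peaks, held 55.3 per Mb and the other 5 chromosomes together 56.9 per Mb. Those other chromosomes were taken whole, with their arms and with the X chromosome. The centres of the other autosomes were not measured apart, so no like part was compared. The density ratio of the centre to the arms was 0.683 (exact 95% interval 0.593 to 0.787), and that of the centre to the other chromosomes was 0.665 (0.594 to 0.742). Covered length differed less from the other chromosomes than the number of peaks did, since peaks in the centre were wider. Peaks covered 1.54% of the centre, 2.18% of the arms and 1.98% of the other chromosomes. The length of a chromosome was taken as the end of its last peak, which is 17461616 on IV.

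Peaks in the centre stood more alone. A lower density by itself leaves longer distances, and the shares below were not adjusted for it. Of the 343 members, 72 had no other midpoint within 20 kb, which is 21.0% (16.8 to 25.7), against 11.0% of the whole list. On the arms of chromosome IV the share was 9.27% (6.79 to 12.3). Another midpoint within 2 kb was found for 88 members, which is 25.7% (21.1 to 30.6), against 32.8% of the whole list and 36.6% on the arms. Very narrow peaks were scarce. Only 13 members (3.79%, 2.03 to 6.39) were narrower than 100 bp, against 9.05% on the arms and 8.91% of the whole list.

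The strength of the members was close to that of the list as a whole. A peak is called stronger here when its q-value, the false discovery rate given by the peak caller, is smaller. The median q-value was 1.82e-04, and the values ran up to 0.00974. A q-value under 1e-10 was reached by 51 members, or 14.9% (11.3 to 19.1), against 13.9% of the whole list. Peaks under this value are called strong below. A q-value under 1e-20 was reached by 17 members, or 4.96% (2.91 to 7.82), against 4.33% of the list. One under 1e-50 was reached by 4 members, or 1.17% (0.319 to 2.96). The share in the list, 0.382%, lies inside that interval. Top-ranked peaks, the 2751 with the smallest q-values of the list, made up 53.9% of the members (48.5 to 59.3), against 50.0% by definition in the list. Among the 20 smallest q-values of the list, 4 belonged to the centre of chromosome IV, which held 6.23% of all peaks. They are the same 4 members as those under 1e-50, and 2 of them lay only 679 bp apart.

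**Figure D1:**
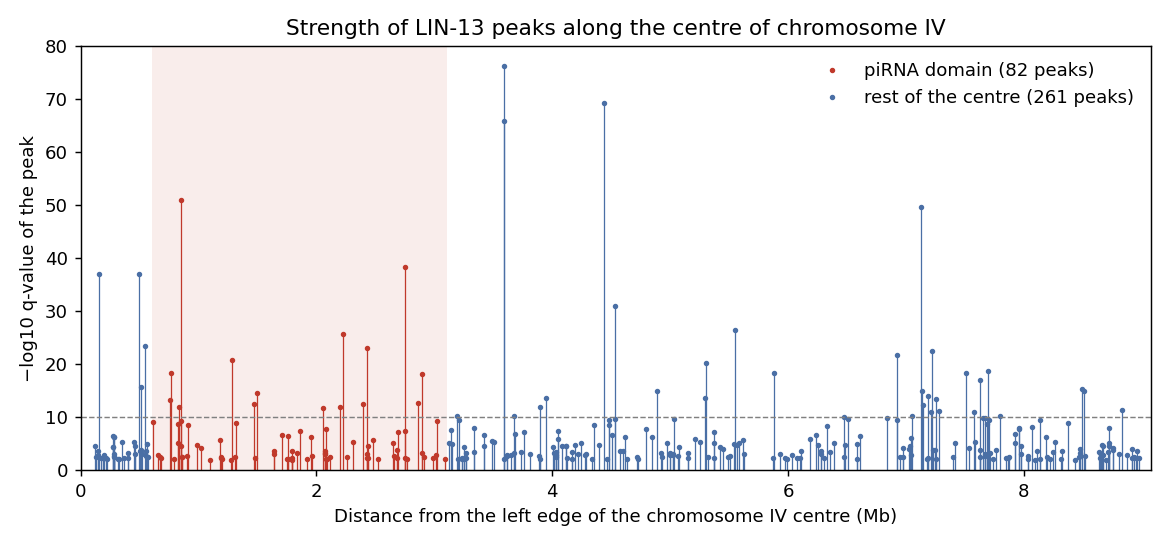
Each of the 343 peaks is a line and a point at its distance in Mb from the left edge of the centre, with its −log10 q-value as height. The shaded band is the piRNA domain (82 peaks), the dashed line marks a q-value of 1e-10, and the 3 tallest peaks, up to 76.3, lie to the right of the domain.

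The strongest site of the centre was a pair of wide peaks to the right of the piRNA domain. Its left member, 7485865 to 7486981 on chromosome IV, was 1117 bp wide. It ranked 5 in the whole list at a q-value of 5.46e-77. The right member began after a gap of 679 bp, at 7487661, ended at 7488764 and ranked 11 at 1.23e-66. Another, weaker peak followed after 476 bp, from 7489241 to 7489542, with a q-value of 0.00788. Together the 3 spanned 3678 bp, and the next peaks lay 83352 bp to the left and 18635 bp to the right. The median gap in the rest of the centre was 15.1 kb, so the gap on the left was long and that on the right ordinary.

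The member next in strength lay on its own. It covered 1634 bp from 8333188 to 8334821 at a q-value of 5.58e-70, and its nearest neighbour lay 25319 bp away. About 98.4 kb further right, midpoint to midpoint, came another wide and strong peak. This one was 1534 bp wide, from 8431605 to 8433138, at 1.06e-31. The remaining 2 of the 10 strongest members that lay right of the domain were narrower. The peak from 11025843 to 11026489 covered 647 bp and reached 2.72e-50. Another of 658 bp, from 9444351 to 9445008, reached 4.22e-27.

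A pair of the 10 strongest members lay left of the domain, in the short stretch between its edge and the edge of the centre. The peak at 4390479 to 4390865 was 387 bp wide and had a q-value of 1.10e-37. The peak at 4049102 to 4049885, 784 bp wide, had nearly the same q-value, 1.18e-37. Peaks of unlike width thus reached like q-values. Among the 10 strongest members the median width was 863.5 bp, and 4 of the 10 were 1000 bp or wider.

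The piRNA domain held 2 of the 10 strongest members. The stronger, 784 bp near the left end of the domain, ran from 4749534 to 4750317. Its q-value of 9.20e-52 ranked 4 in the centre and 19 in the list. The other, 943 bp near the right end, ran from 6645706 to 6646648 and reached 3.96e-39. It led a group of 3 peaks that spanned 3382 bp, in which the weaker peaks started at 6646911 and 6648557. A more isolated peak came next, 6117748 to 6118278, which reached 2.26e-26 and had its nearest neighbour 19900 bp away. Below it ranked the peaks 6323634 to 6324027, at 1.10e-23, and 5183710 to 5184062, at 1.52e-21. They were 394 and 353 bp wide, near the domain median of 374 bp, and lay on either side of the middle of the domain.

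The piRNA domain had fewer peaks per Mb than the rest of the centre, and over all peaks the difference was within counting error. It held 32.8 peaks per Mb (26.1 to 40.7), against 39.7 per Mb (35.0 to 44.8) in the rest. The ratio was 0.826, with an exact 95% interval of 0.637 to 1.06 that includes 1. The interval lay below 1 under 2 of the alternatives. With only the peaks of a q-value below 0.001 the ratio was 0.707 (0.499 to 0.985). With flanks of up to 2.5 Mb as the rest it was 0.743 (0.558 to 0.984). The left flank was cut at the edge of the centre, so it was only 0.604 Mb long, at 62.9 peaks per Mb. The domain took up 27.6% of the length of the centre and held 23.9% of its peaks (19.5 to 28.8). By covered length the ratio was 0.851, at 1.37% covered in the domain and 1.61% in the rest.

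The rest of the centre was densest at its left end. The 0.604 Mb left of the domain held 38 peaks, or 62.9 per Mb (44.5 to 86.3), while the 5.97 Mb right of it held 223, or 37.4 per Mb (32.6 to 42.6). The density ratio of the domain was 0.521 (0.351 to 0.787) to the left stretch and 0.878 (0.673 to 1.14) to the right stretch. This split was chosen after the values were seen. All 38 peaks on the left lay between 4.0 and 4.5 Mb. The 104 kb between the left edge of the centre and 4.0 Mb held 0 peaks, and the gap that crosses this edge, from the peak ending at 3860622 to the one starting at 4019872, was 159 kb long.

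Counts per window showed how far single stretches differed. In the 5 windows of 500 kb in the domain, the counts were 20, 11, 21, 13 and 17 peaks from left to right. In the 12 full windows of the rest they ran from 10 to 38. The median was 17 in the domain and 18.5 in the rest. The counts of the domain thus all lay within the range of the rest. The fullest window was the one just left of the domain, with 38 peaks, and the next had 27, between 11.5 and 12 Mb. The emptiest was that from 9.5 to 10 Mb, with 10 peaks.

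**Figure D2:**
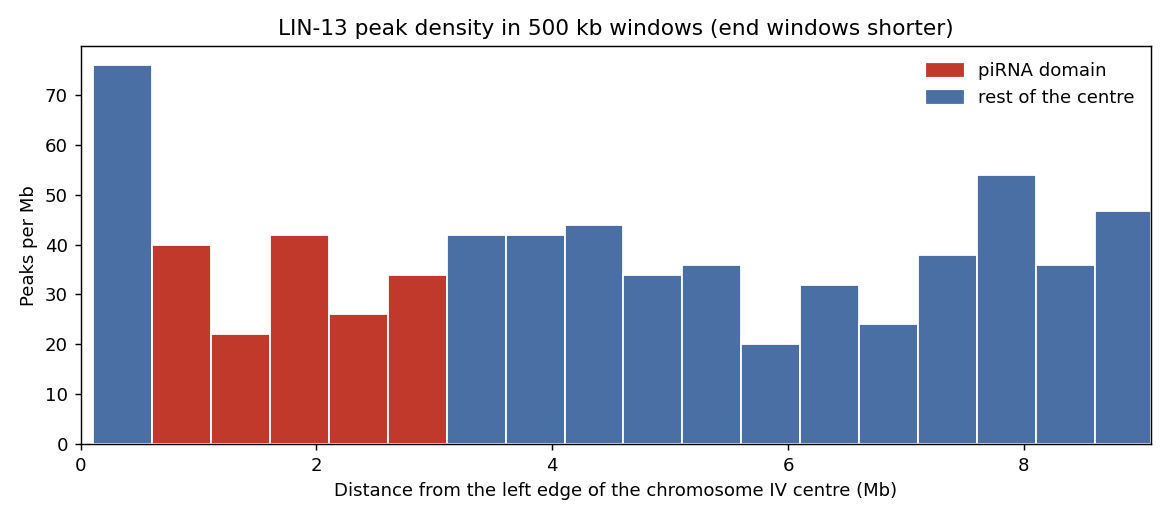
Bars give peaks per Mb in windows of 500 kb, placed by distance in Mb from the left edge of the centre; the windows at both ends are shorter (104 and 470 kb). The 5 bars of the piRNA domain run from 22.0 to 42.0 per Mb, and the window on its left reaches 76.0.

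The fullest window held closely spaced peaks. It was picked for its number of peaks, and a higher density by itself brings midpoints closer. The share of neighbours below was not adjusted for that. Of its 38 peaks, 18 had another midpoint within 2 kb, which is 47.4% (31.0 to 64.2), against 22.4% (17.1 to 28.5) in the rest right of the domain and 32.8% of the whole list. The largest group of the centre lay here, with 5 peaks between 4176427 and 4180293. Their widths ran from 125 to 583 bp, and the smallest q-value among them was only 4.41e-07. Of the 38 peaks, 10 were narrower than 200 bp, or 26.3% (13.4 to 43.1), against 12.6% (8.51 to 17.6) in the rest right of the domain and 24.2% of the whole list, so their share was near that of the list. A q-value under 1e-10 was reached by 4 of them, or 10.5%, against 13.9% of the whole list.

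Strong peaks were about as dense in the domain as in the rest, within wide intervals, and the lowest ratio was found for peaks of moderate strength. Peaks with a q-value under 1e-10 numbered 15 in the domain, or 6.00 per Mb, and 36 in the rest, or 5.48 per Mb, a ratio of 1.10 (0.557 to 2.05). As a share of the peaks these were 18.3% (10.6 to 28.4) in the domain and 13.8% (9.85 to 18.6) in the rest, against 13.9% of the whole list. Peaks from 1e-10 to 1e-5, which made up 20.6% of the whole list, came to 7.20 per Mb in the domain and 8.97 in the rest, a ratio of 0.802 (0.445 to 1.38). In the tier from 1e-5 to 1e-3 the domain held 13 peaks, or 5.20 per Mb, and the rest held 76, or 11.6 per Mb. They made up 15.9% of the peaks of the domain and 29.1% of those of the rest, against 26.1% of the whole list. The ratio in that tier was 0.450, with an interval of 0.229 to 0.816 that is not adjusted for the 4 tiers examined. For the weakest peaks, from 1e-3 to 0.01, which made up 39.4% of the whole list, it was 1.05 (0.694 to 1.56), at 14.4 per Mb in the domain and 13.7 in the rest. The tiers were chosen after values of these peaks had been seen.

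**Figure D3:**
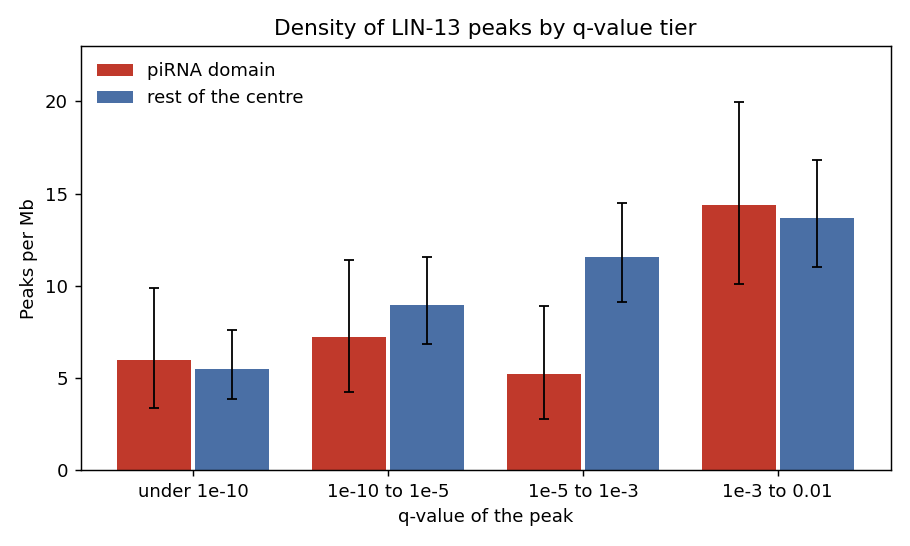
Bars give peaks per Mb in 4 tiers of q-value, the piRNA domain left of the rest of the centre, with exact Poisson 95% intervals of counting error. In the tier from 1e-5 to 1e-3 the domain has 5.20 peaks per Mb and the rest 11.6, while the bars of the strongest tier, 6.00 and 5.48, lie close together.

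The median strength therefore depended on which peaks were kept. Over all peaks the median −log10 q-value was 3.46 in the domain (exact order-statistic 95% interval 2.64 to 5.16) and 3.84 in the rest (3.50 to 4.48). Among peaks with a q-value below 0.001 it was 7.34 in the domain and 5.26 in the rest, so the order turned. The intervals overlapped in both cases. The share of top-ranked peaks was 50.0% (38.7 to 61.3) in the domain and 55.2% (48.9 to 61.3) in the rest.

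The strong peaks of the domain were spread over its length. Every window of 500 kb held at least 1 of the 15 with a q-value under 1e-10, and the counts were 4, 3, 1, 4 and 3 from left to right. Neighbouring strong peaks lay a median of 88.9 kb apart in the domain, with the closest pair 9.80 kb apart, at 4650531 and 4660343. The median distance was 85.8 kb in the rest right of the domain. Distances under 10 kb numbered 1 of 14 in the domain, or 7.14% (0.181 to 33.9), and 5 of 31 in the rest right of the domain, or 16.1% (5.45 to 33.7). Some of the latter lay in the run between 11.0 and 11.5 Mb described next. Over the centre the share was 6 of 50, or 12.0% (4.53 to 24.3), and over the whole list it was not computed. These intervals overlap widely.

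The closest run of strong peaks in the centre lay between 11.0 and 11.5 Mb. That window held 19 peaks, of which 10 had a q-value under 1e-10 and 15 were top-ranked, and its median −log10 q-value of 11.0 was the highest of the windows. No other window held more than 4 such peaks. From 11025843 to 11179787 the run counted 8 strong peaks, led by the peak at 11025843 named above and by one of 488 bp from 11119044, which reached 2.88e-23. Then came 227 kb with only 2 peaks, at 11298598 and 11310670, and after them another pair of strong peaks. The one starting at 11406798 reached 4.12e-19, and the one starting at 11473958 reached 9.57e-12. The window was singled out after its values were seen.

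Long gaps between peaks were more frequent in the domain than in the rest, within overlapping intervals. The gaps were not adjusted for the lower density of the domain. The median gap between neighbouring peaks was 16.5 kb (9.02 to 25.8) in the domain and 15.1 kb (12.5 to 19.7) in the rest, which overlap, and its order turned with other edges, as given in the closing section. Gaps over 50 kb numbered 17 of 81 in the domain, or 21.0% (12.7 to 31.5), and 33 of 259 in the rest, or 12.7% (8.94 to 17.4), against 8.66% of the gaps of the whole list. They added up to 59.2% of the length of the domain and 39.9% of that of the rest. Gaps that cross the edges of the centre, of 159249 and 128811 bp, were not counted. The value for the rest therefore leaves out the parts of these that lie inside it. In the domain, 3 gaps were longer than 100 kb, of 154, 141 and 133 kb. The first of these followed the peak ending at 5209760, and the next followed the peak ending at 5395060. Between 5209761 and 5535816, over 326 kb, the list held only 3 peaks, of which 2 were strong. These started at 5364171, with 3.25e-13, and at 5394474, with 2.24e-15.

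The 2 longest gaps of the centre lay outside the domain. They measured 245 kb, from 9525262 to 9770636, and 230 kb, from 10504323 to 10734561. In the domain the closest pair was separated by 228 bp, between 5685579 and 5685808. The closest pair of the centre lay in the rest, with 212 bp between the peaks 4405535 to 4407013 and 4407226 to 4407480. Another midpoint within 2 kb was found for 20 of 82 peaks in the domain, or 24.4% (15.6 to 35.1), and for 68 of 261 in the rest, or 26.1% (20.8 to 31.8). The domain had 7 groups of 2 and 2 groups of 3 neighbours within 2 kb, and the rest had 24 of 2, 5 of 3 and the group of 5.

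Peaks were slightly wider in the piRNA domain, within overlapping intervals. The median width was 374 bp in the domain (318 to 413), with quartiles of 273 and 506 bp, and 322 bp in the rest (299 to 346), with quartiles of 246 and 486 bp. Widths from 300 to below 500 bp made up 39.0% in the domain, 32.2% in the rest and 31.7% on the arms of chromosome IV. Those from 500 to below 1000 bp made up 24.4%, 18.8% and 16.2% in the same order. From 200 to below 300 bp the shares were 22.0%, 29.5% and 21.8%. From 100 to below 200 bp they were 7.32%, 11.1% and 15.5%. Shares of these classes in the whole list were not computed. The classes at both ends went the other way. Widths below 100 bp made up 4.88% in the domain (1.34 to 12.0) and 3.45% in the rest (1.59 to 6.44). In the whole list they made up 8.91%. A width of 1000 bp or more was found for 2 peaks of the domain, or 2.44% (0.297 to 8.53), and for 13 of the rest, or 4.98% (2.68 to 8.37), against 2.69% of the whole list. The widest in the domain was 1314 bp, from 5753029 to 5754342.

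**Figure D4:**
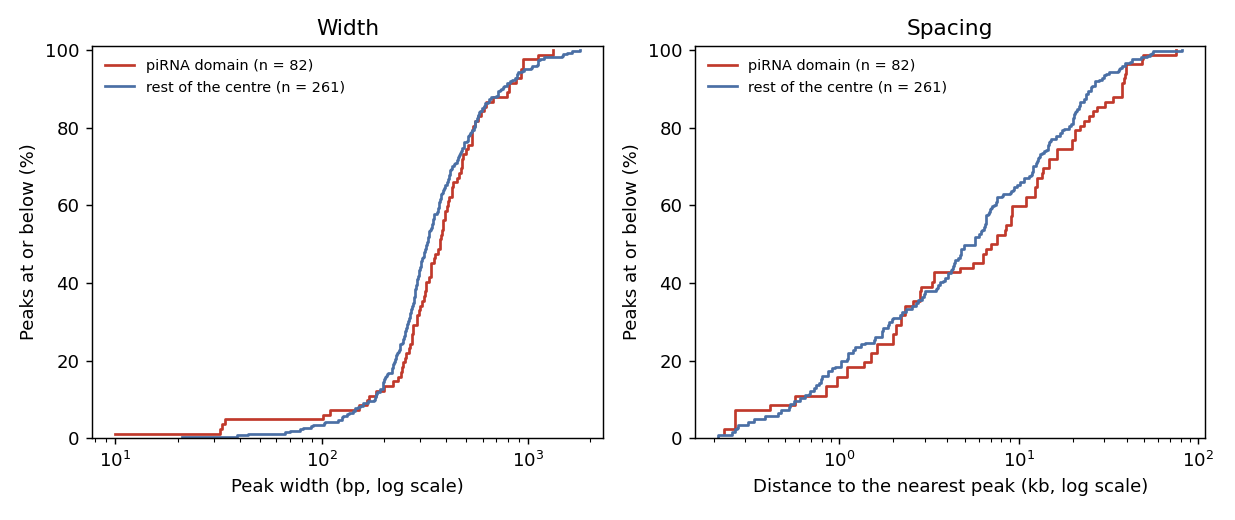
The curves give the percent of peaks at or below a width (left, bp) and at or below a distance to the nearest peak (right, kb), on log scales, for the piRNA domain (n = 82) and the rest of the centre (n = 261). The width curve of the domain runs to the right of the other around the medians of 374 and 322 bp, and the spacing curves cross.

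The 5 widest members all lay outside the domain. The widest, 1770 bp from 9772009 to 9773778, reached 5.50e-19 and followed the longest gap of the centre with 1 peak between. The peaks at 8333188 and 8431605, described above, came next. Then followed 1479 bp from 4405535 to 4407013, at 1.93e-16, and 1457 bp from 11593350 to 11594806, at 1.77e-19. Of the 15 members of 1000 bp or more, 9 had a q-value under 1e-10, against 51 of all 343 members. The same count was not made for wide peaks outside the centre. Across the 343 members Spearman's rho between width and −log10 q-value was 0.44, at 0.30 in the domain (n = 82) and 0.49 in the rest (n = 261). These are descriptions across peaks of the same combined libraries.

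The q-values also carry read numbers. With peaks ranked as deposited, the product of q-value and rank was 26301 times a lower binomial tail at a probability of 0.5, for whole numbers of trials and successes. The match was within 1e-11 in natural log units for 5502 of 5502 peaks, and it failed for every peak when 26301 was changed by 1 in either direction. Exactly 1 pair of whole numbers matched each of the 343 members. The trials are called total implied reads here, the successes implied input reads, and the difference between them implied ChIP reads. That reading was taken from the form of the equation and not from a deposited count, and the input was scaled by the caller with a factor that is not known. Within chromosome IV, values were compared on the assumption that the factor was the same throughout.

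On this scale enrichment was moderate at most members. The median member had 80 implied ChIP reads and 32 implied input reads, and the median ratio was 2.47 (2.39 to 2.59), with quartiles of 2.06 and 3.18. The ratio was 2.43 in the domain (2.14 to 2.77) and 2.47 in the rest (2.39 to 2.60), so no difference was detectable. On the arms of chromosome IV it was 2.65 (2.53 to 2.71). A ratio under 2 was found for 22 of 82 peaks of the domain, or 26.8% (17.6 to 37.8), and for 51 of 261 in the rest, or 19.5% (14.9 to 24.9), against 16.6% of all peaks of chromosome IV and 13.1% on its arms. A ratio of 5 or more was found for 6 peaks of the domain, or 7.32% (2.73 to 15.2), and for 10 of the rest, or 3.83% (1.85 to 6.93), against 6.82% of all peaks of chromosome IV. The domain thus held a larger share at both ends of the ratio, with overlapping intervals.

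The highest ratio among members with at least 100 implied reads belonged to the peak of 387 bp at 4390479. It had 217 ChIP and 24 input reads, a ratio of 9.04. The pair at 7485865 and 7487661 followed, with 529 ChIP against 83 input reads, a ratio of 6.37, and with 465 against 75, a ratio of 6.20. The peak at 11025843 had 357 against 59 reads, a ratio of 6.05, and that at 4049102 had 269 against 45, a ratio of 5.98. The strongest peak of the domain, at 4749534, had 375 against 64 reads, a ratio of 5.86. A higher ratio in the domain, 8.33, belonged to a peak with fewer reads, 75 against 9, at 4727936 to 4728190. This last peak was chosen after its values were seen.

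Wide peaks had many reads, and most of those named had moderate ratios. The widest member, at 9772009, had 341 ChIP and 139 input reads, a ratio of 2.45, and the peak at 11593350 had 366 against 153, a ratio of 2.39. The peak at 8333188 had the most ChIP reads of the centre, 599 against 129, a ratio of 4.64. Across the 343 members Spearman's rho of width was 0.93 with total implied reads and -0.31 with the ratio. Peaks of few reads can pass the q-value limit only at high ratios, so the sign of this correlation is partly built in.

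**Figure D5:**
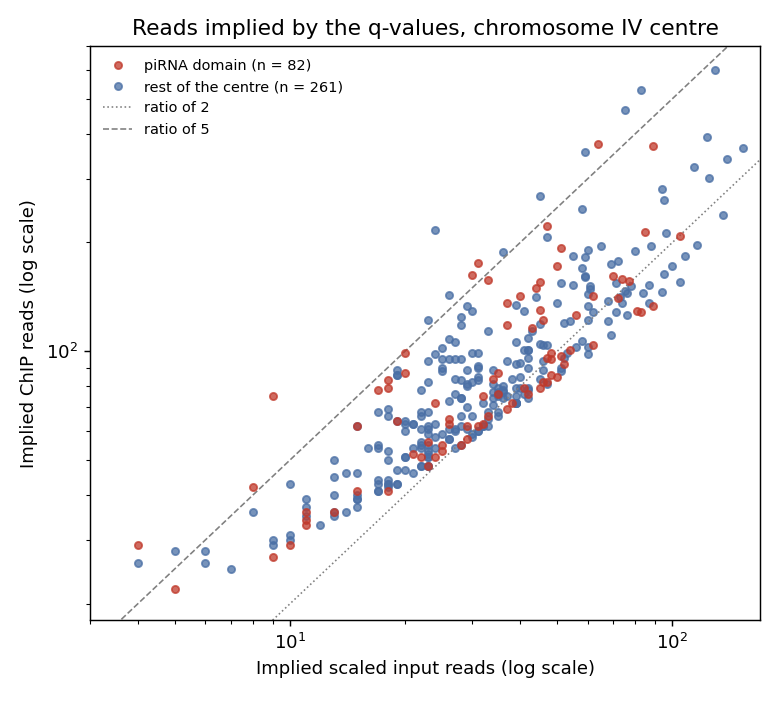
Each point is 1 of the 343 members, with implied scaled input reads on the x axis and implied ChIP reads on the y axis, both on log scales. Points of the piRNA domain (n = 82) and the rest (n = 261) share the same cloud, and the lines mark ratios of 2 and 5.

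Peaks at the edges of the rule differed in strength, from a q-value of 7.00e-10 to 0.00633, and none was under 1e-10. At the left edge of the centre, the q-value was 2.54e-05 for the first peak inside, which starts at 4019872, and 0.00184 for the last outside, which starts at 3860373. At the right edge it was 0.00440 for the last inside, from 12869883, and 0.00153 for the first outside, from 12999045. The first peak of the domain, from 4513470 to 4513844, reached 7.00e-10 and lay 43.2 kb from the peak before it, from 4469715, which had 0.00391. The last peak of the domain, from 6984227, had 0.00633, and the next one outside, from 7022996, had 6.34e-06.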

How the data were processed

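Chromatin of C. elegans embryos was analysed from 1 deposited peak list in GFF3 format. Peaks were called with PeakSeq in WormBase WS180 coordinates, per the file headers and source column, from both replicates combined; its version, the aligner and the filters on reads were not known here. The deposited q-value of each peak, a p-value adjusted by the peak caller, is below 0.01 in all 5502 rows. Start and end are positions counted from 1, and width is end minus start plus 1.

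Members were taken by midpoint. The members, measures and lists were chosen with earlier results of these data known. Peaks named are the 10 strongest in the centre, the 5 strongest in the domain, the 5 widest, the 5 with the highest implied ratio at 100 reads or more, the longest and shortest gaps, and the fullest and emptiest windows of 500 kb; others were named after their values were seen. Shares have Clopper-Pearson intervals, densities exact Poisson intervals, density ratios the conditional exact interval, and medians order-statistic intervals, all at 95% and for counting error only. The depth per library is unknown. Implied reads were found by matching each q-value times its rank to binomial tails, and this matching was tested on simulated data. Python 3.11.15, numpy 2.4.6, scipy 1.17.1, pandas 2.3.3 and matplotlib 3.10.9 were used.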

Additional observations from a re-analysis of the deposited data

How the results depend on the processing

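Of 123 values recomputed under alternatives, 93 stayed within the interval of the value as reported and 30 did not. Of these, 24 came where weak peaks were dropped and 6 where neighbours were counted within another distance or close peaks were merged. Dropping weak peaks by itself lowers densities, lengthens gaps and raises the median −log10 q-value. Another distance or merging changes what counts as a neighbour. Such moves were thus largely built in, while the order of the domain and the rest was not. With a q-value below 0.001, or with the 2751 top-ranked peaks alone, the density of the centre was 23.9 and 20.4 peaks per Mb. The median ratio was 3.09 and 3.41 in the domain, and 2.77 and 2.92 in the rest, so that its order turned. The median −log10 q-value was 7.34 and 8.44 in the domain, and 5.26 and 6.28 in the rest, and also turned. The share under 1e-10 was 32.6% and 36.6% in the domain, and 21.1% and 25% in the rest. The median gap was 36516 and 56123 bp in the domain, and 26600 and 32618.5 bp in the rest, while the share with a neighbour was 8.70% and 4.88% in the domain, and 14.0% and 12.5% in the rest. The median width of the rest was 364 and 370.5 bp. The share with a neighbour was 8.54% in the domain and 6.51% in the rest within 1 kb, 43.9% and 47.1% within 5 kb, and 15.4% and 19.1% after merging peaks under 500 bp apart. The density ratio of the domain stayed below 1 under every alternative run. It ran from 0.707 with a q-value below 0.001 to 0.878 against the rest on the right alone. Its interval lay below 1 with a q-value below 0.001 and with flanks of up to 2.5 Mb (0.743, 0.558 to 0.984). The left one of these flanks was cut to 0.604 Mb by the edge of the centre. The interval included 1 under the other alternatives that gave an interval. The order of the domain and the rest in the share with a neighbour also turned with edges moved 100 kb to the left (28.7% and 25.5%), with the domain narrowed by 250 kb at each end (29.5% and 26.1%) and against the rest on the right alone (24.4% and 22.4%), which was chosen after seeing the data. The median gap, counted from each peak to the next, was 16884 bp in the domain and 15872 bp in the rest, and it turned with edges moved 100 kb to the left (14804 and 16065 bp) and against the rest on the right alone (16884 and 18617 bp). Without the fullest window of each side, the median ratio was 2.73 and 2.47 and the median −log10 q-value 4.21 and 3.94, again in the other order. No paired analysis was possible because the list holds no value per replicate, and for that reason none could be left out. Empty stretches mean only that no region passed the caller's limit of 0.01, not that the protein did not bind.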
